A study of Homo sapiens with 6 samples.

Results

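Transcripts of the machinery that folds secretory proteins in the endoplasmic reticulum (ER), and that returns misfolded ones to the cytosol for degradation, were read on 6 one-colour Affymetrix expression arrays of human cells. The list was made by gene name and held 36 genes, taken with every probe set annotated to 1 of these genes alone. It came to 86 probe sets for 33 of the 36 genes, of 54613 probe sets that are not controls on the array. PDIA5, TXNDC5 and SYVN1 had no such probe set and are given no value.

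The 231wCFry group held 3 samples of a single stable clone, labelled as MDA-MB-231 cells that were transfected with the wild-type Fry cDNA of the Copenhagen rat (wtCopFry) selected with puromycin, and picked for a Fry level near that of MCF10A, a non-tumour breast line. They were set against 3 samples of untransfected MDA-MB-231, an established line of mesenchymal-like breast tumour cells without the oestrogen receptor. Both lines grew in monolayer in Advanced DMEM with heat-inactivated serum, and passage number differed between samples, per the design text. A clone carrying an empty vector is not described in the labels, and the labels name no stress agent.

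Markers of other lineages also differed between the groups. At an adjusted p under 0.05, the threshold used throughout, 66.9% of all tested genes differed, 33.9% higher and 32.9% lower in the 231wCFry samples. Of 8 tested melanocyte and neural crest markers 7 were higher in the 231wCFry samples and 0 lower, and the summed signal of the 9 measured ranged between 5899.4 and 6305.1, against 387.6 to 472.2 in the untransfected samples. SOX10, PAX3 and S100B carried most of the difference, and the pigment gene PMEL stood at 3.2 to 8.2 in the 231wCFry samples, against 4.3 to 14.3. Of 8 tested epithelial markers 1 was higher and 6 were lower, with summed signals of 1720.5 to 1882.9 against 8634.5 to 9271.3. KRT19 was not above unspiked control probe sets in the 231wCFry samples, nor were SOX10, PAX3 and S100B in the untransfected ones. Of 7 plasma cell markers, a cell type with a large ER, 3 were tested and 1 was higher (IRF4) and 1 lower (PRDM1), with summed signals of 2577.6 to 3004.9 against 2383.0 to 2633.6, nearly all SDC1, while JCHAIN and MZB1 were not above those controls in either group. The ratio of 3' to 5' signal of the GAPDH controls, a sign of RNA quality, was 1.24 to 1.33 in the 231wCFry samples, against 1.36 to 1.39. These marker levels go against the label of the clone as a derivative of MDA-MB-231, and whether it derives from that line was not tested. Each difference below is therefore one between the samples labelled 231wCFry and those labelled MDA-MB-231, in which transfection, clonal origin and cell identity cannot be told apart.

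Proteins enter the ER through the SEC61 channel and are folded there by the Hsp70 chaperone HSPA5 (BiP) and the Hsp90 chaperone HSP90B1 (GRP94), by the lectin chaperones calnexin and calreticulin, and by disulfide isomerases that the oxidases ERO1A and ERO1B recharge. Chains that fail to fold are marked by mannose trimming, which the EDEM proteins promote, and pass through a membrane complex of SEL1L, the ubiquitin ligase SYVN1 and the derlins to the proteasome. When unfolded chains accumulate, the sensors IRE1 (the product of ERN1), PERK (of EIF2AK3) and ATF6 start the unfolded protein response, in which IRE1 splices the mRNA of the transcription factor XBP1, and spliced XBP1 and cleaved ATF6 raise transcription of chaperone and degradation genes.

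The 2 lines differed in several genes of degradation, oxidation and stress sensing. The list as a whole was called less often than all tested genes (48.5% against 66.9%). HERPUD1, EDEM2, ERO1B and XBP1 were higher in the 231wCFry samples by factors of 2.27 to 3.26 in mean signal, and ATF6, ERO1A, EDEM1 and EDEM3 were lower, ATF6 by a factor of 3.09. The brightest probe sets of the chaperones HSPA5, CALR and HYOU1 and of PDIA6 did not pass, with ratios of 0.959 to 1.04. With each gene read from its brightest probe set (highest mean log2 signal), 10 of the 33 measured genes rose, 6 fell and 17 did not pass (limma, Benjamini-Hochberg adjusted p under 0.05 over all tested probe sets). All 33 passed the filter on dim probe sets.

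These shares were below those of the array as a whole. The 16 genes called make 48.5% of the 33, while 66.9% of all 13606 tested genes were called, 33.9% higher and 32.9% lower. At a log2 difference of at least 1 the share was 5 of 33 (15.2%), against 23% of all tested genes. The median absolute difference was 0.23 on the log2 scale over the list and 0.47 over all tested genes, and the signed medians were -0.06 and 0.01. In 23 of the 33 genes (69.7%) the 3 arrays of 1 line did not overlap with those of the other, against 73% of all tested genes. In a culture read as a whole, fewer cells with a transcript and less of it per cell cannot be told apart.

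**Figure D1:**
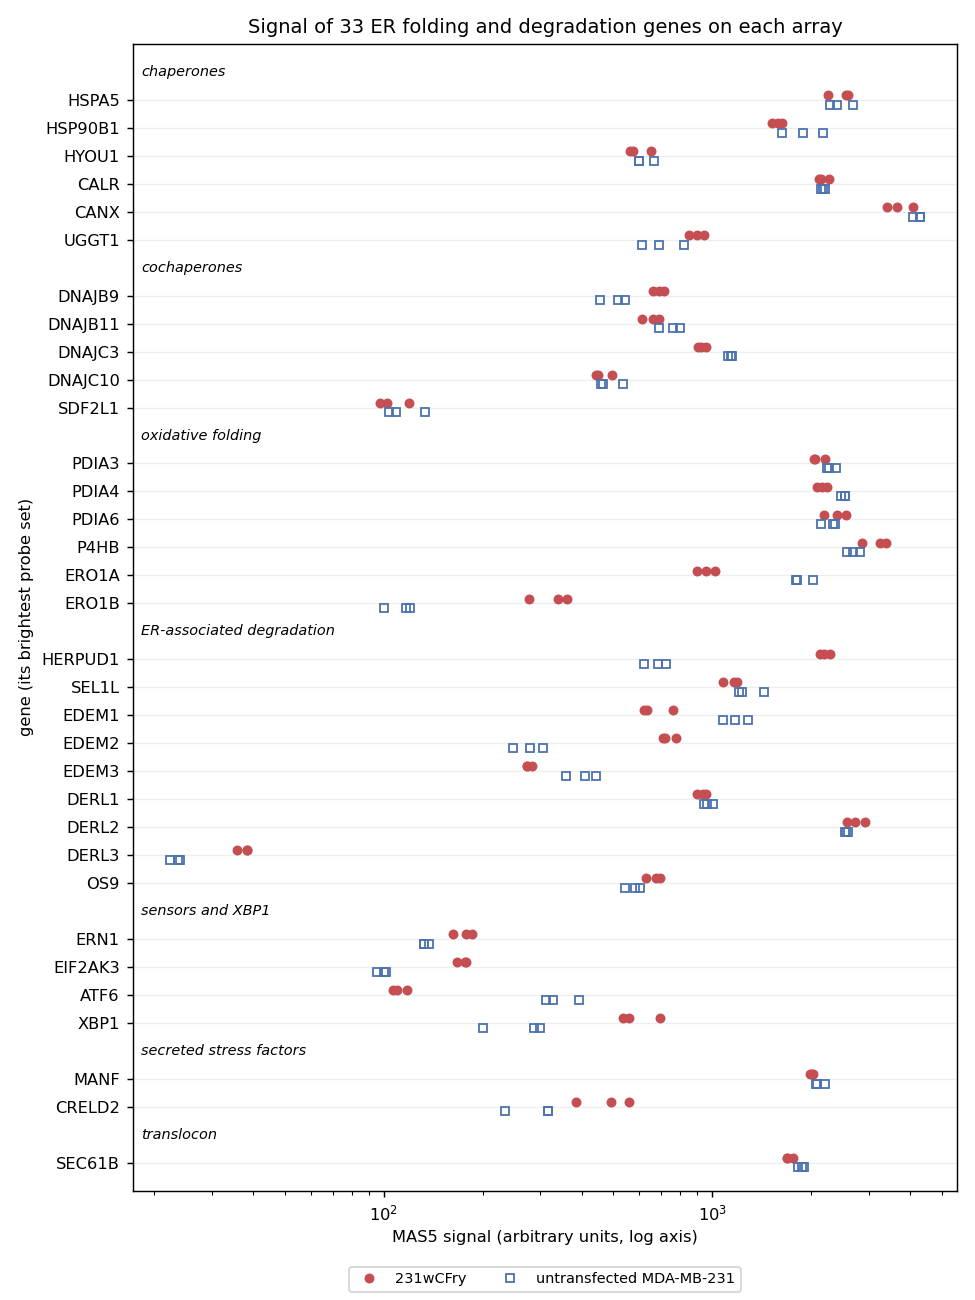
MAS5 signal (arbitrary units, log axis) of the 33 measured genes on each of the 6 arrays, each gene by its brightest probe set, ordered by role; filled circles are the 3 231wCFry arrays and open squares the 3 untransfected ones. The symbols of HSPA5 and CALR lie on top of each other, while those of HERPUD1, EDEM2, ERO1B, XBP1 and ATF6 stand apart; signals of different genes come from different probes and cannot be ranked against each other.

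**Figure D2:**
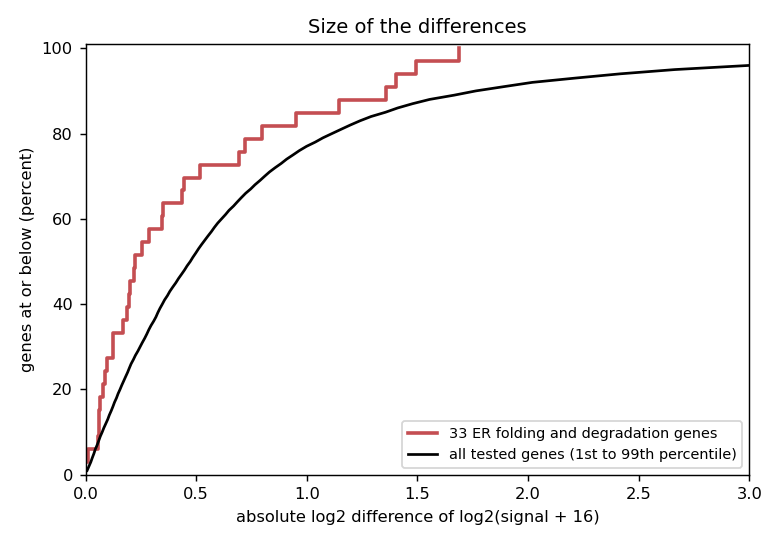
Cumulative percent of genes (vertical axis) at or below an absolute log2 difference of log2(signal + 16) (horizontal axis), for the 33 genes as steps and for all tested genes as a line. The steps run left of the line at the middle of the list, where the median is 0.23 against 0.47.

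ATF6 and XBP1 are known to act at the ER stress element ERSE, which is CCAAT, 9 bases of any kind and CCACG, and at the shorter ERSE-II, which is ATTGG, 1 base of any kind and CCACG. Both were searched on both strands of RefSeq promoter windows of GRCh38.p14, which run from 250 bases before to 50 after the start. ERSE was in 27 of 35116 windows (0.0769%) and belonged to 25 of 27305 genes (0.0916%), of which 8 are on the list. ERSE-II was in 19 windows (0.0541%) of as many genes, of which 3 are on the list. So 11 of the 33 genes of the list with a window held 1 of these motifs, 4 of them higher in the 231wCFry samples (HERPUD1, ERO1B, XBP1 and CRELD2), 0 lower and 7 not called (HSPA5, HSP90B1, HYOU1, CALR, CANX, SDF2L1 and PDIA6). Of the 22 without either, 5 were higher, 6 lower, 8 not called and 3 are those with no probe set of their own. Of all tested genes 33.9% were higher and 32.9% lower, and whether the motifs go with a direction was not tested. The 33 genes with a window are not the same as the 33 measured ones, so some measured genes are missing from these counts. These are matches of letters and show no binding, and windows without a match show only that the exact letters are missing there. A further element, UPRE (TGACGTGG), was in 0.729% of windows and in those of HYOU1, DNAJC10 and TXNDC5, and in HYOU1 it overlapped an ERSE-II.

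Printed here are the 250 bases before the start of 2 genes that rose, HERPUD1 and XBP1, and of the chaperones HSPA5 and HSP90B1, which did not pass, to show that such elements stand before genes of both kinds. They are from RefSeq (GRCh38.p14), read 5′ to 3′ on the strand of the gene, with ERSE or ERSE-II in capitals.
HERPUD1, chr16:56931892-56932141, plus strand: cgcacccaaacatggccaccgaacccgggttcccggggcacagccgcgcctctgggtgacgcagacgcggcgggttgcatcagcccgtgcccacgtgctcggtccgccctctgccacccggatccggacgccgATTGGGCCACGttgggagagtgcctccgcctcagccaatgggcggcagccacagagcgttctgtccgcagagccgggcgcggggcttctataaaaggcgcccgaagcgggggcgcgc
XBP1, chr22:28800570-28800819, minus strand: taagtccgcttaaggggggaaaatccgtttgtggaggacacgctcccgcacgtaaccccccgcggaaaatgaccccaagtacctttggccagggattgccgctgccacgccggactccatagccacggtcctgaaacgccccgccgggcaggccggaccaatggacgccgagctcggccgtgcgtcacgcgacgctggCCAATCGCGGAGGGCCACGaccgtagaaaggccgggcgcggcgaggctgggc
HSPA5, chr9:125241344-125241593, minus strand: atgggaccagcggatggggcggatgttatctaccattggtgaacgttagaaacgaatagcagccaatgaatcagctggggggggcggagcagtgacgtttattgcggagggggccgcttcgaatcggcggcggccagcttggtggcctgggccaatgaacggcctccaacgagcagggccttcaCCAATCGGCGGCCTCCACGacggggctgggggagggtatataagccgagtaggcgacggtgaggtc
HSP90B1, chr12:103930160-103930409, plus strand: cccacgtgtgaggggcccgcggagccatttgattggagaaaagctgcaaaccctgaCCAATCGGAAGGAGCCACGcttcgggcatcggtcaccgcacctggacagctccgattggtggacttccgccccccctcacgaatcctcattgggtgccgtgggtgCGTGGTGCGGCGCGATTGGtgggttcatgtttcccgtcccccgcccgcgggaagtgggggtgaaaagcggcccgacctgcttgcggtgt
HERPUD1 shows ERSE-II, from 117 to 107 bases before the start. In XBP1 an ERSE lies from 52 to 34 bases before the start and in HSPA5 from 66 to 48. HSP90B1 holds 2 copies, the one nearer to the start on the opposite strand and so printed as its reverse complement.

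**Figure D3:**
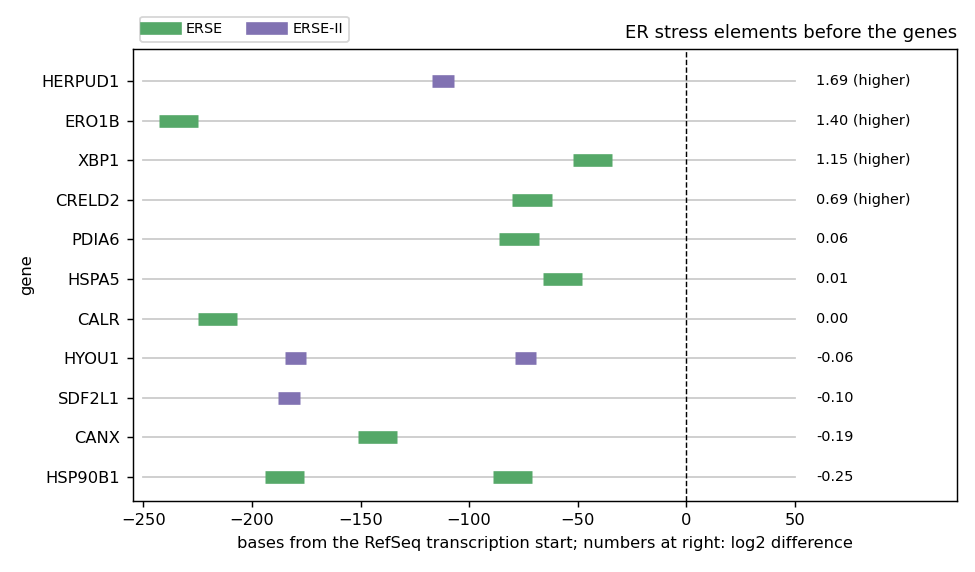
Position of ERSE (green) and ERSE-II (purple) in bases from the RefSeq start (horizontal axis) in the windows of the 11 genes that hold either, for the first window with a match, with the log2 difference of each gene at the right. Genes run from HERPUD1 (1.69) at the top to HSP90B1 (-0.25) at the bottom, and those called higher are marked.

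Among the general chaperones and lectins 1 of 6 passed (16.7%, against 66.9% of all tested genes), UGGT1, which rose. HSPA5, which holds chains in a foldable state and keeps the sensors silent, read 2555.4, 2256.3 and 2589.4 in the 231wCFry samples and 2276.3, 2389.0 and 2678.0 in the untransfected samples. The groups overlapped, with a log2 difference of 0.01 (95% interval -0.22 to 0.24, adjusted p = 0.928). A dimmer HSPA5 probe set went another way, at 110.1, 121.5 and 106.7 in the 231wCFry samples against 224.5, 244.0 and 246.7 (log2 difference -0.98, SE 0.09, adjusted p = 1.29e-05). Averaging both turned the difference of the gene to -0.49 (adjusted p = 3.22e-04), so the level of HSPA5 depends on which probe set is read.

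HSP90B1, the ER's Hsp90, stood at 1523.6, 1587.4 and 1624.3 in the 231wCFry samples and at 1882.2, 2172.5 and 1634.6 in the untransfected ones. The groups did not overlap, by a narrow margin, and the difference of -0.25 (SE 0.11) did not pass (adjusted p = 0.0806). It passed under 4 of 14 alternatives, among them without untransfected replicate 3 (-0.35, adjusted p = 0.0186), and its other probe set was called lower (-0.32, adjusted p = 0.0116). CALR (calreticulin) and HYOU1, a large Hsp70 relative that acts as nucleotide exchange factor of HSPA5, gave differences of 0.00 (interval -0.19 to 0.19) and -0.06 (interval -0.28 to 0.16).

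For CANX, the membrane-bound lectin chaperone calnexin, the brightest probe set did not pass (-0.19, SE 0.10, adjusted p = 0.127), and 3 dimmer ones were each called lower, between -0.87 and -0.48. Its mean over probe sets was -0.57 (adjusted p = 9.85e-05). UGGT1, the glucosyltransferase that returns unfolded glycoproteins to calnexin and calreticulin, averaged 897 ± 49.5 in the 231wCFry samples and 706 ± 106 in the untransfected ones (SD, n = 3 each; log2 difference 0.35, SE 0.12, adjusted p = 0.0283). This call ended without any of 4 single arrays, without the first or second of either line (adjusted p = 0.0672 to 0.101). Of the 4 other UGGT1 probe sets 3 were called higher, at 0.52 to 0.98.

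Of the 5 HSPA5 partners 1 rose and 1 fell, a called share of 40% against 66.9% of all tested genes. DNAJB9 (ERdj4), a J-domain protein that restrains IRE1, read 690.0, 661.0 and 710.8 in the 231wCFry samples and 455.9, 543.1 and 514.6 in the untransfected samples. Every 231wCFry array lay above every untransfected one (0.44, SE 0.10, adjusted p = 0.00325), and both other probe sets of the gene were called higher, at 0.75 and 0.99. DNAJC3 (p58IPK), an ER J-domain protein also known as an inhibitor of PERK, fell to 927 ± 24.8 in the 231wCFry samples, against 1133 ± 19.1 in the untransfected ones (-0.29, SE 0.08, adjusted p = 0.0143), a call lost without the first 231wCFry array (adjusted p = 0.0548).

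DNAJB11 (ERdj3) and SDF2L1, which form a complex, did not pass, at -0.19 and -0.10. DNAJC10 (ERdj5), a J-domain reductase that opens disulfides before degradation, did not pass by its brightest probe set (-0.07, adjusted p = 0.58), while 1 other of its 4 tested probe sets was called higher (0.54) and 1 lower (-0.45). Such calls in both directions were seen in DNAJC10 and ERN1, 2 of the 23 genes of the list with several tested probe sets (8.7%), against 6.73% of all such genes on the array.

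Of the 6 measured genes for oxidases and isomerases 1 rose and 2 fell, a called share of 50% against 66.9% of all tested genes. The 2 ER oxidases were called in opposite directions. ERO1B, an ER oxidase best known from pancreatic beta cells, read 338.8, 360.5 and 277.0 in the 231wCFry samples and 120.6, 116.9 and 100.3 in the untransfected samples. All 3 arrays of the clone lay above all 3 of the untransfected line, with a mean ratio of 2.89 (log2 difference 1.40, SE 0.12, adjusted p = 6.45e-06). ERO1B had a single tested probe set, so its call has no check within the array. The widely expressed oxidase ERO1A, which is also raised by hypoxia, went the opposite way at 958.9, 1019.7 and 899.9 in the 231wCFry samples, against 1807.0, 2018.8 and 1791.2. Its groups were far apart as well (-0.95, SE 0.10, adjusted p = 2.10e-05), and its other 2 probe sets were called lower too, at -0.52 and -0.38.

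The disulfide isomerases changed little by their brightest probe sets. PDIA4 fell to 2156 ± 74.2 in the 231wCFry samples, against 2510 ± 40.1 (SD, n = 3; -0.22, SE 0.08, adjusted p = 0.047), and this call was lost without any single array of the 6 (adjusted p = 0.0567 to 0.127) and with the replicate block (0.0696), whereas a dimmer PDIA4 probe set fell by 0.80 (adjusted p = 5.29e-04). P4HB, the founding isomerase PDI, did not pass at 3150 ± 272 against 2687 ± 127 (0.23, adjusted p = 0.0724), although the groups did not overlap and 5 of 15 alternatives called it higher. Of its 2 dimmer probe sets 1 was called higher (0.31, adjusted p = 0.0167) and 1 was not (0.17, adjusted p = 0.136). PDIA6, a partner of HSPA5 known to act on IRE1, gave 4 probe sets between 0.06 and 0.21, none called. PDIA3, the isomerase that works with calnexin and calreticulin, did not pass at -0.13 (interval -0.32 to 0.07), but its 2 dimmer probe sets were called higher, at 0.35 and 0.73, and its mean over probe sets was 0.32 (adjusted p = 0.00318).

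**Figure D4:**
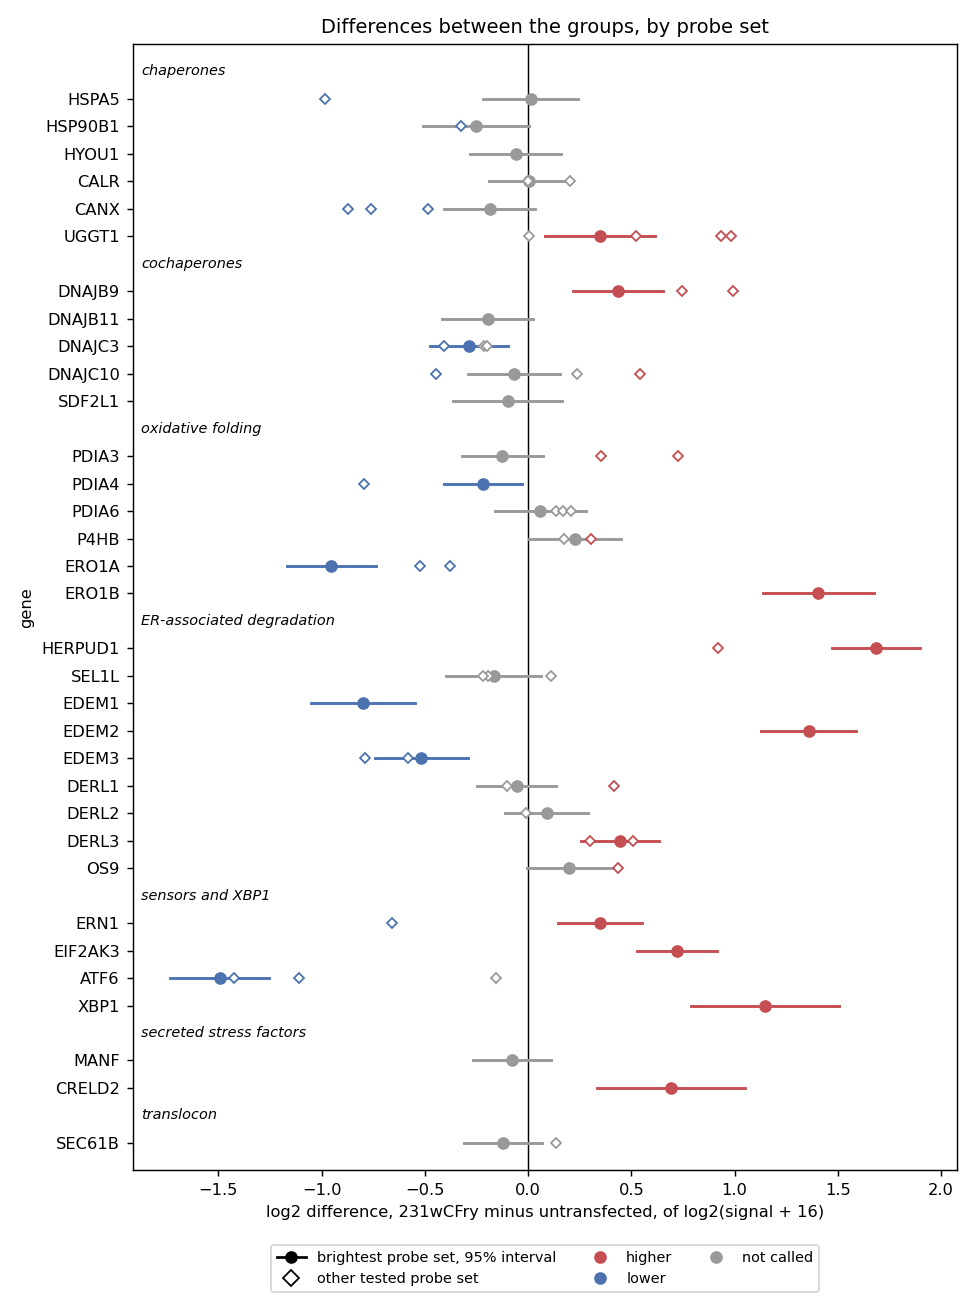
Log2 differences (231wCFry minus untransfected, of log2(signal + 16)) of all 79 tested probe sets of the list, by gene and role; circles with 95% intervals are the brightest probe set of each gene, diamonds the others, coloured by call. ERO1A and ERO1B, and EDEM1 and EDEM2, lie on opposite sides of 0. HSPA5, PDIA3, DNAJC10 and ERN1 are among the genes with probe sets on both sides, and only DNAJC10 and ERN1 had calls in both directions.

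Over single probe sets 24 of 79 tested were higher, 21 lower and 34 not called, a called share of 57%. Of all tested probe sets 62.4% were called, 30.2% higher and 32.2% lower. The other 7 of the 86 were too dim to be tested.

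Degradation genes held the largest rise of the list. HERPUD1 (Herp), a membrane protein that gathers the retrotranslocation complex, read 2190.3, 2128.6 and 2283.1 in the 231wCFry samples and 682.9, 618.5 and 721.4 in the untransfected samples. Every array of the clone lay far above every one of the untransfected line, with a mean ratio of 3.26 (log2 difference 1.69, SE 0.09, adjusted p = 3.70e-07). A second, dim HERPUD1 probe set was called higher as well (0.92, adjusted p = 1.42e-04).

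The 3 EDEM genes, whose products speed the mannose trimming that marks misfolded glycoproteins, did not move together. EDEM2 read 707.1, 776.9 and 716.7 in the 231wCFry samples and 278.5, 304.8 and 247.4 in the untransfected samples, each array of the clone above each of the untransfected line (1.36, SE 0.10, adjusted p = 2.83e-06). EDEM1 read 631.9, 619.9 and 760.6, against 1079.4, 1280.7 and 1169.6 (-0.80, SE 0.11, adjusted p = 1.93e-04). EDEM3 was lower too, at 273.1, 283.0 and 272.7 in the 231wCFry samples against 358.4, 409.4 and 442.4 (-0.52, SE 0.10, adjusted p = 0.00148), and so were its 2 other probe sets, at -0.79 and -0.58. EDEM1 and EDEM2 each had a single probe set, so their opposite calls have no check within the array.

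DERL3, a derlin known from secretory cells, was dim in both lines at 38.4, 38.4 and 35.9 in the 231wCFry samples and 24.0, 23.7 and 22.4 in the untransfected ones. It was called higher (0.44, SE 0.08, adjusted p = 0.00128), as were its other 2 probe sets, and at this signal log2(signal + 16) understates the ratio of means of 1.61. DERL1 and DERL2, the widely expressed derlins, did not pass at -0.06 (interval -0.25 to 0.14) and 0.09 (interval -0.11 to 0.29), though 1 further DERL1 probe set was called higher (0.42). SEL1L, the scaffold of the SYVN1 ligase, had 4 tested probe sets and none called (brightest -0.17, adjusted p = 0.179). OS9, a lectin that reads the trimmed glycan, did not pass at 0.20 (adjusted p = 0.0842), with a second probe set called higher (0.44, adjusted p = 0.00252). In all, 3 of the 9 measured degradation genes rose, 2 fell and 4 did not pass. The called share was 55.6%, against 66.9% of all tested genes.

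By their brightest probe sets the 4 genes for the sensors and XBP1 all passed, 3 higher and 1 lower, against 66.9% called of all tested genes. The count of 3 includes ERN1, whose other tested probe set was called lower. ATF6, the sensor that is cleaved to a transcription factor, read 106.5, 117.6 and 109.9 in the 231wCFry samples and 312.3, 391.9 and 327.7 in the untransfected samples. The clone's highest array was well below the untransfected line's lowest (-1.49, SE 0.11, adjusted p = 1.96e-06). Of the other 3 ATF6 probe sets 2 were called lower, at -1.43 and -1.11, and 1 was not (-0.15, adjusted p = 0.363).

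XBP1, the transcription factor that IRE1 activates by splicing, read 536.6, 559.0 and 692.8 in the 231wCFry samples and 200.9, 299.7 and 287.1 in the untransfected samples. The spread within each line was wide but the groups were apart (1.15, SE 0.16, adjusted p = 1.73e-04). The probe set is annotated by gene and gives no reading of spliced against unspliced XBP1. EIF2AK3, which encodes the kinase PERK, read 167.5, 178.6 and 176.4, against 95.7, 101.8 and 100.5 in the untransfected samples, with no overlap (0.72, SE 0.08, adjusted p = 6.12e-05). XBP1 and EIF2AK3 each had a single tested probe set.

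ERN1, which encodes IRE1, gave no settled direction. Its brightest probe set read 162.4, 186.2 and 178.4 in the 231wCFry samples and 137.5, 132.9 and 132.5 in the untransfected samples, and was called higher (0.35, SE 0.09, adjusted p = 0.00739). A second read 50.1, 39.4 and 37.8 in the 231wCFry samples, against 79.1, 71.7 and 77.4, and was called lower (-0.66, SE 0.10, adjusted p = 4.30e-04). The groups did not overlap on either, and the mean of both was -0.16 (adjusted p = 0.0674).

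**Figure D5:**
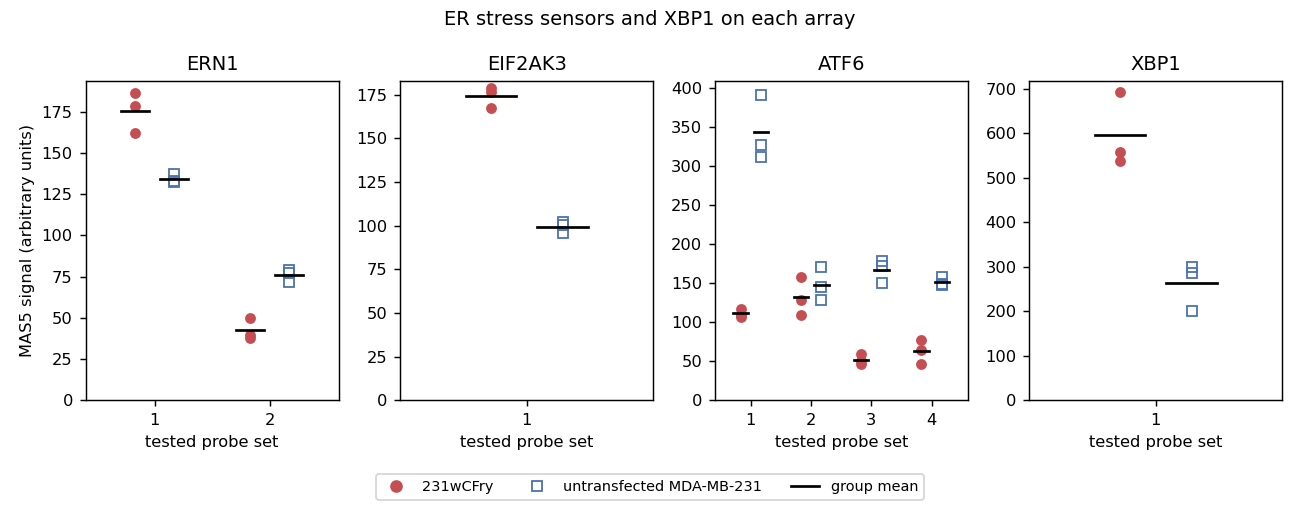
MAS5 signal (arbitrary units, from 0) of ERN1, EIF2AK3, ATF6 and XBP1 on each array for every tested probe set (numbered within a gene), with group means as bars. The 231wCFry arrays lie below the untransfected ones on 3 of 4 ATF6 probe sets and overlap on the other, lie above them for EIF2AK3 and XBP1, and lie above on 1 and below on the other probe set of ERN1.

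CRELD2 and MANF, secreted ER proteins that are released under ER stress, differed in their calls. CRELD2 read 490.7, 559.2 and 385.4 in the 231wCFry samples and 316.8, 233.9 and 317.1 in the untransfected samples. The groups were separate in spite of a wide spread (0.69, SE 0.16, adjusted p = 0.00391), on the single probe set of CRELD2. MANF read 2005.3, 1975.9 and 2024.7 in the 231wCFry samples, against 2076.4, 2067.6 and 2196.7, and did not pass (-0.08, interval -0.27 to 0.11). SEC61B, a subunit of the translocation channel, did not pass either at -0.12 (interval -0.31 to 0.07).

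A wider list of 85 other ER genes was read for context, of which 79 were tested, 30 were higher, 24 lower and 25 not called. The called share of 68.4% was near the 66.9% of all tested genes, and by role it ran from 55.6% to 83.3%. Of 17 tested genes for translocation and signal peptide cleavage 6 rose and 6 fell. The channel subunit SEC61A1 averaged 2020 ± 13.7 in the 231wCFry samples and 1153 ± 57 in the untransfected samples (0.80), and the signal recognition particle receptor subunit SRPRB rose by 1.06, while the signal peptidase subunit SEC11C fell by 0.62. Of 18 tested folding enzymes 8 rose and 4 fell. CLGN (calmegin), a relative of calnexin best known from the testis, read 1.6, 0.3 and 0.4 in the 231wCFry samples, not above the unspiked controls, and 746.1, 734.4 and 763.8 in the untransfected ones. It was at least 212-fold lower against the control level of each array. The thioredoxin-like TMX4 and the prolyl isomerase FKBP11 rose, by 1.87 and 1.76 on the log2 scale.

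Glycan and degradation genes outside the list were mixed as well. Of 12 tested genes for glycan transfer and trimming 4 rose and 6 fell, among them the glucosidase subunit PRKCSH (1.09), the oligosaccharyltransferase subunit STT3B (-0.91) and the mannosidase MAN1A1, at least 13.7-fold lower. Of 18 further degradation factors 7 rose and 3 fell, with the ligase RNF139 at 1.13, the conjugating enzyme UBE2G2 at 0.76 and ERLIN1, which helps to degrade IP3 receptors, at -1.04. Of 14 tested sensors and stress factors 5 rose and 5 fell. CREB3L1, a membrane-bound transcription factor built like ATF6, fell to 13.6 ± 5.57 in the 231wCFry samples, against 626 ± 76.5 (SD, n = 3; -4.45, SE 0.14), whereas its relative CREB3L4 rose by 1.10. TRIB3, a pseudokinase induced by the PERK branch, rose by 2.37. The adjusted p of the genes named from this wider list was at most 3.35e-04.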

How the data were processed

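RNA was read on 6 arrays, 3 per line, 1 array per sample. The deposited table holds linear signal intensity from MAS5, as named in the submitters' processing notes (version not given in the sources used here), and the files show each array scaled to the same trimmed mean. MAS5 subtracts mismatch signal, so values near background reach 0 and their ratios are unstable. Probe sets were named from GEO's platform annotation, where 41091 name 1 gene, 1801 several and 11721 none; only the first kind was used.

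Signals were transformed to log2(signal + 16). Probe sets whose mean reached the 40th percentile (a signal of 5.62) were fitted together, 32768 in all, in limma 3.58.1 (R 4.3.3; lmFit, then eBayes), with the line as the only term and Benjamini-Hochberg adjustment over all of them. The fit was also run on simulated data with independent noise and few changed probe sets. That setting is unlike these data, where most probe sets were called, so it is no check of the calls given here. Each gene was represented by the probe set of highest mean log2 signal. A level not above background was one at or below the highest of 27 unspiked bacterial control probe sets on every array of a group (2.5 to 4.9). A fold then compares the mean log2 signal of the bright group with that level or the probe set's own, and a higher floor would make it smaller. Of the wider list, up to 3 genes per group with the smallest p among those called without overlap are named.

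The genes, lists and tests were chosen with earlier results of these data known. The samples of a line differed in passage number, per the design text, and the labels do not say whether they were grown independently. The p-values measure the spread between these samples and not between clones. Only 3 arrays per group limit the precision. No batch or scan date is given. Alternatives changed the pseudocount, filter, normalization, probe sets, variance trend, replicate block and the arrays used. Plots used matplotlib 3.10.9 and Python 3.11.15.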

Additional observations from a re-analysis of the deposited data

How the results depend on the processing

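Under 15 alternatives the counts of genes of the list stayed between 9 and 12 higher and between 4 and 9 lower, against 10 and 6. With probe sets averaged, 12 of the 33 genes were higher and 9 lower, while 9564 of all 13606 tested genes were called. The called share of the list then lay nearer to that of the array, so the size of this gap depends on the setting. Of the 33 genes 22 kept their side of the threshold under each alternative run, 12 of them called: HERPUD1, EDEM1, EDEM2, EDEM3, ERO1A, ERO1B, ATF6, XBP1, EIF2AK3, DNAJB9, DERL3 and CRELD2. Leaving out probe sets whose IDs end in _x_at, _s_at or _a_at lowered the called probe sets of the list to 14 higher and 10 lower, since fewer were tested. HERPUD1 and EDEM3 had no probe set left in that run, so it is no check of their calls. The same holds for HYOU1, SDF2L1 and SEL1L among the genes that stayed not called. Averaging the probe sets of a gene turned HSPA5 to -0.49, PDIA3 to 0.32 and ERN1 to -0.16, since their probe sets differ. Of these genes only ERN1 had calls in both directions, while the brightest probe sets of HSPA5 and PDIA3 were not called. A replicate block, with the replicate number of the titles as a term, gave 10 genes higher and 5 lower and changed only the call of PDIA4. The numbers share no stated batch, and the deviations of same-numbered arrays correlated at 0.0701, 0.0748 and 0.188, so they were not taken as pairs. MAS5 background limits the dim probe sets, and 7 of the 86 were not tested for this reason. Some tested ones were also near the control level of 2.5 to 4.9. The second HERPUD1 probe set read 3.3, 5.7 and 9.6 in the untransfected samples.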
